A study of Homo sapiens with 45 samples.

Results

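In HEY cells, a human ovarian cancer line, 3 arrays taken after transfection with miR-429 were compared directly with 3 arrays taken after transfection with miR-203a, and these 6 of the 45 arrays of the series were chosen by their titles. Each group had received 33 nM of a commercial precursor of its microRNA (miRNA) with a lipid reagent, and RNA was taken after 48 h, so both groups carry the transfection and neither is untreated. The 3 HEY arrays of the negative-control precursor (miR-NC) and the arrays of the same miRNAs in SKOV3, another ovarian cancer line, and PC3, a prostate cancer line, are used beside them, again with 3 arrays a group. The labels name no sublines, clones or genetic changes in any of these groups, and the arm of miR-203a in the precursor is not given. RNA was amplified from its 3′ side, labelled with biotin and hybridised to arrays of 54675 probe sets, and all values are log2 intensities. Whether a group's 3 arrays came from separate cultures is not given in the labels, so every p-value measures only the spread between arrays. These are populations of cells, in which fewer cells of a type and less RNA per cell cannot be told apart.

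A miRNA binds, mainly through bases 2 to 8 at its 5′ end (the seed), to matching sites in messenger RNAs and lowers their stability and translation. miR-429 belongs to the miR-200 family, which is known for lowering the transcriptional repressors ZEB1 and ZEB2. Those repressors in turn silence E-cadherin (CDH1) and other epithelial genes during epithelial-mesenchymal transition (EMT). miR-203a is abundant in stratified epithelium, where it restrains the growth of progenitor cells, and SNAI2, SRC and LASP1 are among its published targets. The mature sequences are shown because the miRNAs were set against each other and because miR-429 shares its target list with the family members miR-200b and miR-200c. Sequences and positions are from RefSeq (GRCh38.p14), all on the plus strand, with the seed in capitals, and the 3p arm is shown for miR-203a. Their positions are chr1:1169055-1169076 for miR-429, chr14:104117469-104117490 for miR-203a-3p, chr1:1167160-1167181 for miR-200b-3p and chr12:6963742-6963764 for miR-200c-3p.
hsa-miR-429: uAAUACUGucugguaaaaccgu
hsa-miR-203a-3p: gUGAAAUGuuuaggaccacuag
hsa-miR-200b-3p: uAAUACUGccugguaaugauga
hsa-miR-200c-3p: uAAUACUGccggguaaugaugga
miR-429 shares all 7 seed bases with miR-200b-3p and miR-200c-3p, and 3 of 7, position by position, with miR-203a-3p.

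The control probe sets of the array, which do not measure the genes under study, also differed between the miR-429 and miR-203a arrays. All 18 hybridisation controls, RNAs added to each sample in fixed amounts, were higher on every miR-429 array than on every miR-203a array, by 0.30 to 2.55 log2 units (median 1.77). Their mean was 13.13, 13.17 and 13.19 on the miR-429 arrays, against 11.68, 11.63 and 11.64 on the miR-203a arrays, and 11.70, 11.61 and 11.87 on the miR-NC arrays. The miR-429 arrays thus stood apart from the HEY miR-203a and miR-NC arrays, which lay close together. These controls were not compared with the remaining HEY arrays of the series, of a further miRNA and of untransfected cells. In SKOV3 the same controls differed between the miRNAs by -0.21 to 0.27. The gap between the 3′ and 5′ probe sets of GAPDH, a measure of how far the labelled RNA reaches towards its 5′ end, was 7.38, 7.14 and 7.49 log2 units with miR-429, against 3.22, 3.33 and 3.65 with miR-203a. For ACTB it was 8.59, 8.81 and 8.96 with miR-429, against 6.71, 6.67 and 6.87 with miR-203a. The 5′ GAPDH probe set was lower with miR-429 by 2.69 log2 units while the 3′ one was higher by 1.24. The 3 probe sets for 18S ribosomal RNA were higher by 0.97 to 2.87. Of 27 Bacillus subtilis controls 11 were higher and 3 lower without overlap, where 53.5% of genes did not overlap. All 27 had means below 4.89, the median of all values, in both HEY groups, and so lay near background. Only the miRNA on the label distinguishes the groups, so a difference in RNA quality, amplification or hybridisation and the effect of the miRNA cannot be told apart from the 6 arrays alone. The SKOV3 arrays differed from the HEY arrays in these controls. Their GAPDH gap lay between -0.01 and 0.08. The Bacillus subtilis control DapX (3′ probe set) averaged 10.34 with miR-429 and 10.04 with miR-203a in SKOV3, against 2.68 and 2.83 in HEY. A difference between the lines therefore cannot be told apart from a difference in labelling or array processing. The SKOV3 value of the same contrast, whose arrays are all separate, is given beside most genes named below, and probe sets are counted where those of a gene passed in both directions in HEY.

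**Figure D1:**
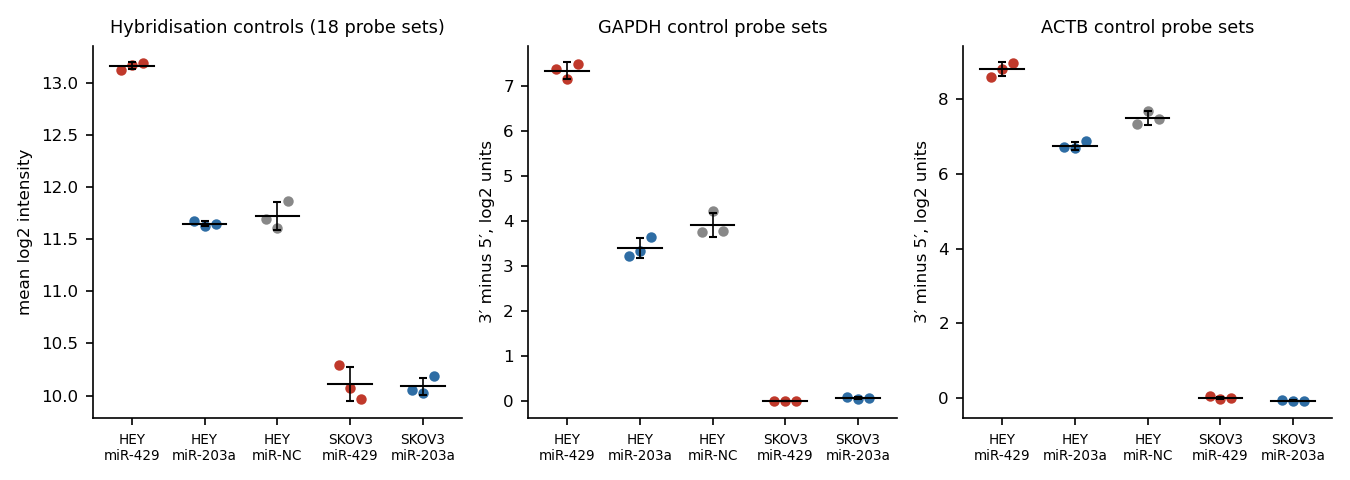
Mean of the 18 hybridisation control probe sets (left, log2 intensity) and the 3′ minus 5′ difference of the GAPDH (middle) and ACTB (right) control probe sets (log2 units). Each point is an array, with the group mean and SD (n = 3) as line and bar; the HEY miR-429 arrays lie above the HEY miR-203a and miR-NC arrays in all panels, while the SKOV3 groups lie together.

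The labels of the line were checked against genes that mark cell types. VIM, FN1, CDH2 and ZEB1, mesenchymal markers, had means of 9.33 or more in both HEY groups. Of the epithelial markers, CDH1, EPCAM and GRHL2 had means of 4.26 or less in both, below the median of all values on the arrays (4.89), which is used here as the level near background. The exception was ESRP1, an epithelial splicing regulator, at 8.32 with miR-429 and 6.26 with miR-203a. Arrays of 1 group correlated across probe sets at 0.981 to 0.993, and arrays of the different groups at 0.943 to 0.949. Of 8 measured markers of SKOV3 and PC3 cells 3 had a mean above 4.89. ERBB2 and PAX8 (25.0% of the 8) were higher with miR-429, by 0.99 (with 1 of 3 probe sets higher and 1 lower) and 0.74. Of 7 markers of blood and endothelial cells 2 had a mean above 4.89. These, CDH5 and PECAM1 (28.6% of the 7), were lower, and none was higher. Both shares were near those of all genes, of which 19.5% were higher and 29.6% lower.

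With 1 probe set per gene, the brightest, 9709 of 19775 genes (49.1%) passed an adjusted p of 0.05 between miR-429 and miR-203a in HEY. Of these 3862 (19.5%) were higher and 5847 (29.6%) lower with miR-429, and 2982 differed at least 2-fold, 1091 higher and 1891 lower. In 53.5% of genes the arrays of the groups did not overlap, and over all 54613 probe sets 48.1% passed. The miR-429 arrays also differed from miR-NC in 50.8% of genes, whereas miR-203a differed from miR-NC in 11.6%. Over all genes the median difference between miR-429 and miR-203a was -0.08 log2 units. When each array was scaled to its hybridisation controls that median became -1.59, so all directions given here are relative to the bulk of genes as the authors' normalization set it. In SKOV3 the same contrast passed for 16.1% of genes, 2090 (10.6%) higher and 1102 (5.57%) lower. The lower genes were 713 without replicate 3 of the SKOV3 miR-429 arrays and 700 without replicate 3 of the SKOV3 miR-203a arrays. In 38.7% of genes the contrast itself differed between HEY and SKOV3, lines whose arrays also differed in their control probe sets. In PC3 66.5% of genes passed. The contrast differed between HEY and PC3 in 64% of genes, 7180 with a higher and 5479 with a lower value in HEY, which became 4533 and 7393 with array medians subtracted, 5056 and 6121 with quantile normalization and 2665 and 8465 scaled to the hybridisation controls. In PC3 the hybridisation controls differed too, by 0.44 to 1.12 against 0.30 to 2.55 in HEY, and the 5′ GAPDH probe set by more than in HEY. The published targets of miR-429 are counted in PC3 below, and single genes are not followed there.

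The published targets of miR-429 and its seed family were the list in which most members were lower with miR-429 in HEY. Of 43 measured targets 30 (69.8%) were lower, 4 (9.30%) were higher and 9 did not pass, against 29.6% lower and 19.5% higher of all genes. Their median was -0.75 log2 units against -0.08 over all genes. In SKOV3 23 (53.5%) were lower and 2 (4.65%) higher (median -0.46), against 5.57% and 10.6% of all genes. In both HEY and SKOV3 18 were lower and none was higher, against 3.38% and 2.71% of all genes. In PC3 19 were lower and 11 higher, where 8627 of all 19775 genes were lower and 4532 higher. The PC3 median was -0.18, against -0.29 over all genes, so the list did not stand out as lower there. With miR-203a against miR-NC in HEY, 4 of the 43 were lower and 6 higher (median 0.03), against 6.52% and 5.03% of all genes.

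ZEB1 was 9.34, 9.30 and 9.35 with miR-429, against 11.38, 11.40 and 11.42 with miR-203a. The groups were tight and far apart, a 4.20-fold lower level with miR-429 (-2.07 ± 0.11 log2 units, SE, adjusted p = 1.4e-15). Its level with miR-203a was close to that with miR-NC (11.56, 11.54 and 11.55). In SKOV3 ZEB1 differed by -2.14 ± 0.11, and the contrast did not differ between the lines (adjusted p = 0.77, difference 0.07 ± 0.16). Of 4 ZEB1 probe sets 3 were lower in HEY and the other differed by 0.06. ZEB2 was 7.09, 7.01 and 7.05 with miR-429, against 9.85, 10.04 and 9.91 with miR-203a. This was a 7.37-fold lower level (-2.88 ± 0.14, adjusted p = 3.4e-16). Of 5 ZEB2 probe sets 3 were lower, and the other 2, both with means below 4.89, were higher. In SKOV3 ZEB2 lay below background in both groups, at 2.29 and 3.08, so that line gives no size for its change. ZEB2 and VEGFA stand on the published target lists of both miRNAs.

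The largest differences among the targets, after ZEB2, were those of CFL2, MAML3, WIPF1, ZEB1 and SEC23A. CFL2, a cofilin that severs actin filaments, was 9.36, 9.43 and 9.28 with miR-429, against 11.51, 11.67 and 11.55 with miR-203a. All 3 of its probe sets were lower, and its difference was -2.22 in HEY and -2.90 in SKOV3. WIPF1, which binds the actin regulator WASP, was 7.20, 7.53 and 7.55 with miR-429, against 9.34, 9.89 and 9.5 with miR-203a. It differed by -2.15 in HEY and -2.09 in SKOV3, although only 1 of its 4 probe sets passed in HEY. SEC23A, a subunit of the COPII coat of secretory vesicles, was 10.51, 10.42 and 10.35 with miR-429, against 12.23, 12.43 and 12.34 with miR-203a. Both its probe sets were lower, and it differed by -1.90 in HEY and -2.19 in SKOV3. For these 3 genes the groups did not overlap in either line.

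Another 8 targets were lower with miR-429 in both lines. PPM1F, a phosphatase of the kinase PAK, differed by -1.84 in HEY, with 2 of 4 probe sets lower and 1 higher, and by -1.58 in SKOV3. MARCKS, an actin-binding substrate of protein kinase C, differed by -1.11 and -1.07, with all 5 probe sets lower in HEY. CRKL, an adaptor of tyrosine kinase signalling, differed by -0.91 in HEY and -0.72 in SKOV3. PLCG1, a phospholipase downstream of growth factor receptors, differed by -0.77 and -1.14. ERRFI1, an inhibitor of the EGF receptor, differed by -0.81 in HEY and -0.90 in SKOV3. The WAVE protein WASF3 differed by -1.02 and -0.86, and the actin-bundling protein FSCN1 by -0.78 and -0.97. As the mean of its probe sets FSCN1 differed by -0.25 in HEY and did not pass. DNMT3B, a DNA methyltransferase, differed by -1.18 in HEY and -0.96 in SKOV3. For none of these 8 did the contrast differ between the lines at an adjusted p of 0.05, with p from 0.11 to 0.92.

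For other targets the contrast differed between the lines. VEGFA, the angiogenic growth factor, was 7.44, 7.82 and 7.83 with miR-429, against 9.47, 9.49 and 9.40 with miR-203a. It differed by -1.75 in HEY and by -0.35 in SKOV3, and the lines differed (adjusted p = 1.2e-06). DNMT3A, a DNA methyltransferase, differed by -1.42 in HEY, with 2 of 3 probe sets lower and 1 higher, and -0.13 in SKOV3, and BCL2, an inhibitor of apoptosis, by -1.35 and 0.23. MAML3, a Notch coactivator, differed by -2.16 in HEY but lay below background in SKOV3. The 4 targets that were higher with miR-429 in HEY were KLHL20 (1.58), SP1 (1.02), TUBB3 (0.96) and FHOD1 (0.74). None of them was higher in SKOV3, where KLHL20 and FHOD1 were lower. Of 4 KLHL20 probe sets 3 were lower in HEY, against the direction of the brightest, and of 4 SP1 probe sets 2 were lower and 1 higher.

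**Figure D2:**
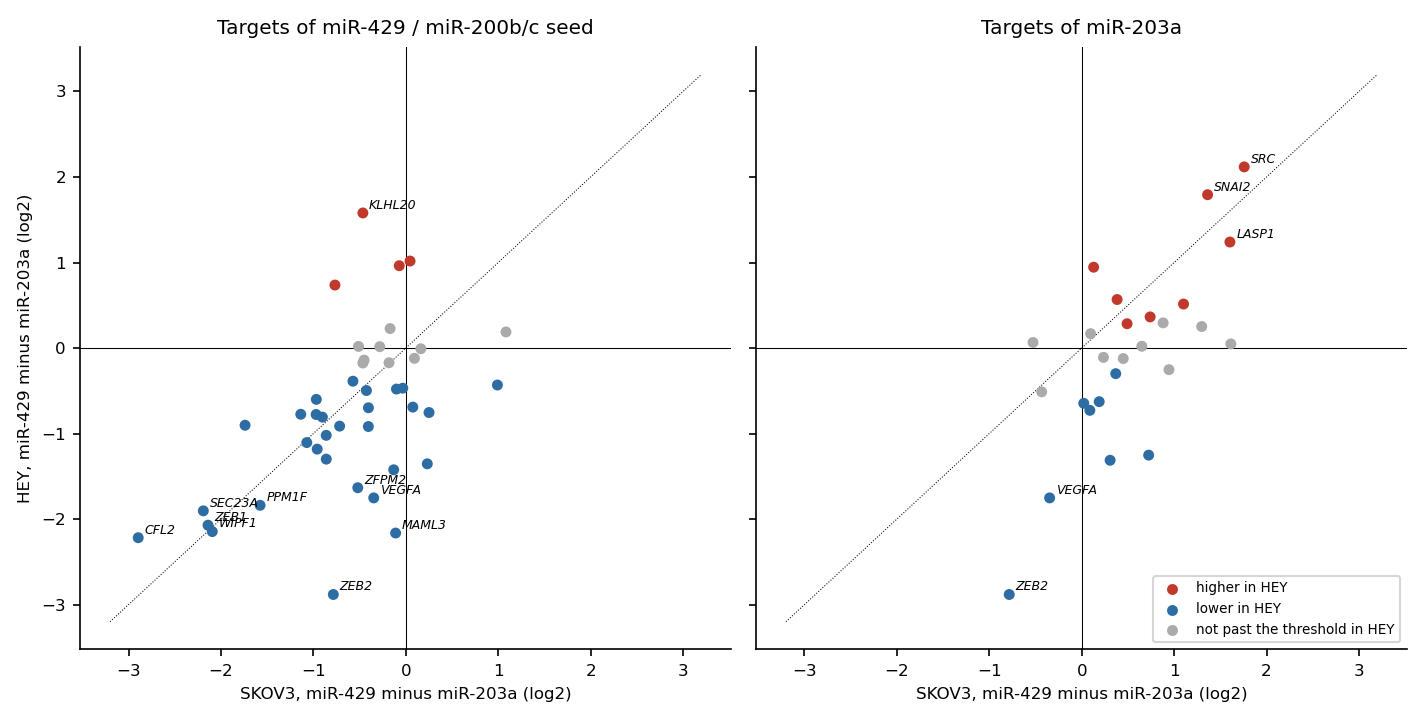
Difference between miR-429 and miR-203a in HEY (vertical) and SKOV3 (horizontal), in log2 units, for 43 published targets of the miR-429 seed (left) and 26 of miR-203a (right). Each point is a gene, coloured by whether it passed the test in HEY, and the dotted line marks equal differences; ZEB1, CFL2, WIPF1 and SEC23A lie near it at about 2 log2 units below 0 in both lines.

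The epithelial marker CDH1 stayed near background in HEY with either miRNA. It was 2.77, 3.41 and 3.65 with miR-429, against 3.33, 2.56 and 3.41 with miR-203a, and 2.87, 3.05 and 2.35 with miR-NC. The groups overlapped, and the difference was 0.18 ± 0.24 (adjusted p = 0.57), with -0.09 to 0.43 when 1 array was left out. In SKOV3 CDH1 was 8.65, 8.39 and 8.72 with miR-429, against 3.85, 4.56 and 4.85 with miR-203a. The values with miR-203a lie below 4.89, so the difference of 4.17 is only a bound. The contrast differed between HEY and SKOV3 by -3.99 ± 0.34 (adjusted p = 1.7e-10), a size that rests on those levels near background. EPCAM, an epithelial adhesion molecule, was 4.74, 4.33 and 3.70 with miR-429 in HEY, against 3.73, 3.18 and 3.51 with miR-203a. All 6 values were below 4.89 and the groups overlapped, although the difference of 0.78 passed the test. In SKOV3 EPCAM was higher by 3.78. A similar difference in ZEB1 thus stood beside CDH1 above background in SKOV3 and near background in HEY. The levels of ZEB1 were not alike, however. With miR-429 its mean was 9.33 in HEY and 7.57 in SKOV3, where it was 9.71 with miR-203a. ZEB2 was still 7.05 with miR-429 in HEY and lay below background in SKOV3. Whether these levels bear on CDH1 was not tested.

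Other EMT genes did not move in 1 direction. ESRP1 was 8.39, 8.32 and 8.26 with miR-429, against 6.41, 6.16 and 6.20 with miR-203a, and 7.57, 7.70 and 7.65 with miR-NC. It was higher by 2.06 ± 0.16 in the direct contrast, with both probe sets higher, and in turn lower with miR-203a than with miR-NC by 1.38. In SKOV3 ESRP1 lay below background, at 3.16 and 2.49. SNAI2, a mesenchymal repressor and published miR-203a target, was 10.72, 10.72 and 10.54 with miR-429, against 8.68, 9.0 and 8.93 with miR-203a. Its level with miR-NC lay between them, at 9.47, 9.58 and 9.44. SNAI2 was higher by 1.79 in HEY and by 1.36 in SKOV3.

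FN1, the matrix protein fibronectin, was 10.09, 9.79 and 10.24 with miR-429, against 11.04, 10.86 and 10.93 with miR-203a. It was lower by 0.90 in HEY and by 1.74 in SKOV3 with 6 of 7 probe sets lower in HEY, and the probe set that was higher had means of 4.95 and 4.27. VIM, the intermediate filament vimentin, was 13.17, 13.01 and 13.00 with miR-429, against 12.26, 12.04 and 12.04 with miR-203a. That probe set was higher by 0.95, but the other VIM probe set differed by -0.66 without passing, and in SKOV3 the difference was -0.19. N-cadherin (CDH2) was lower by 0.45 in HEY, a call that was lost with all 45 arrays in the fit (adjusted p = 0.12, limma), and higher by 0.38 in SKOV3. TWIST1, a mesenchymal transcription factor, was lower by 0.42 in HEY and differed by 0.00 in SKOV3. The epithelial factors GRHL2 (0.71) and OVOL1 (-0.71) passed with all means below 4.89. SNAI1 (0.36), TWIST2 (0.38) and RAB25 (0.40) did not pass in HEY, but without replicate 3 of the miR-429 arrays RAB25 was 0.86 and passed.

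**Figure D3:**
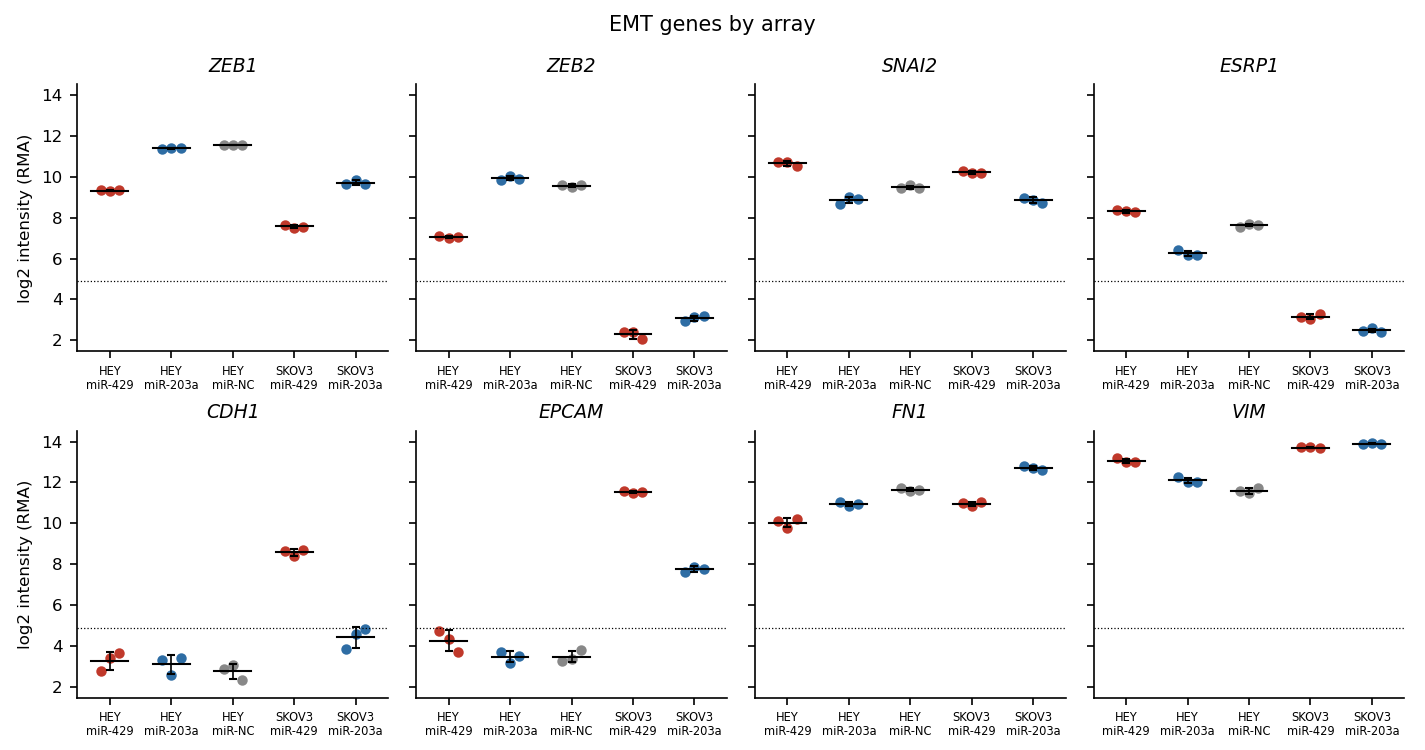
Log2 intensity of 8 EMT genes on each array of 5 groups, with mean and SD (n = 3) as line and bar and the median of all values as a dotted line. ZEB1 is lower with miR-429 in both lines, whereas CDH1 and EPCAM are above the dotted line with miR-429 in SKOV3 and below it in HEY.

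In HEY the median of the published targets of miR-203a was near 0 in the direct contrast. Of 26 measured targets 8 (30.8%) were higher and 8 (30.8%) lower with miR-429, against 19.5% and 29.6% of all genes. Their median was 0.03, against -0.08 over all genes, and ran from -0.03 to 0.07 when 1 array was left out. Against miR-NC, 10 of the 26 were lower with miR-203a and none was higher (6.52% and 5.03% of all genes), with a median of -0.21. Against miR-NC with miR-429, 13 were lower and 4 higher (30.4% and 20.4% of all genes), a comparison that shares the miR-NC arrays with the previous one. In SKOV3 the direct contrast had 13 higher and 2 lower, with a median of 0.42, and 13 of the 26 had a lower value of the contrast in HEY than in SKOV3 and 2 a higher one, against 24.5% and 14.2% of all genes.

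The miR-203a targets that were higher with miR-429 in both lines were led by SRC, SNAI2 and LASP1. SRC, a tyrosine kinase, was 6.31, 5.80 and 6.34 with miR-429, against 4.13, 3.81 and 4.16 with miR-203a. Because its miR-203a level lay below 4.89, the difference of 2.12 is only a bound, and in SKOV3 it was 1.76. LASP1, a focal adhesion protein that binds actin, was 12.25, 11.83 and 11.94 with miR-429, against 10.84, 10.83 and 10.64 with miR-203a. The groups did not overlap, its difference was 1.24 in HEY and 1.60 in SKOV3, and with miR-203a it was lower than with miR-NC by 1.00. E2F3, a cell cycle transcription factor, was higher by 0.51 and 1.10, the kinase NUAK1 by 0.36 and 0.74, and caveolin CAV1 by 0.28 and 0.49, although CAV1 did not pass in HEY with all 45 arrays in the fit (adjusted p = 0.13, limma). JUN (0.57) and BCL2L2 (0.95) were higher in HEY, and in SKOV3 they differed by 0.38 and 0.13 without passing. BCL2L2 was 0.24 in HEY as the mean of its probe sets, and did not pass. Lower in HEY, besides ZEB2 and VEGFA, were ROBO1 (-1.31), RAPGEF1 (-1.25), PRKCA (-0.73), DLX5 (-0.65), AKT2 (-0.63) and BIRC5 (-0.30). None of these 6 was lower in SKOV3, and BIRC5 and RAPGEF1 were higher there. RAPGEF1 had a miR-429 mean of 4.70, below 4.89, so its value is a bound, and it was -0.80 without replicate 3 of the miR-429 arrays. Of 3 RAPGEF1 probe sets 2 were lower and 1 higher, and it turned to 0.38 in HEY without probe sets that may bind related transcripts. BIRC5, with 2 of 4 probe sets higher and 1 lower, turned to 0.33 as the mean of its probe sets, and BIRC5 and DLX5 lost the call in HEY when single arrays were left out. AKT2 was -0.24 as the mean of its probe sets and did not pass.

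Genes that moved at least 2-fold in the same direction in both lines were looked for after the values were seen, and they are described without a test. Of 19775 genes, 1891 were called at least 2-fold lower and 1091 at least 2-fold higher in HEY, and 133 and 468 in SKOV3. In both lines alike there were 78 lower and 41 higher genes. In 28 and 13 of them the arrays did not overlap in either line, all 4 group means exceeded 4.89, and all of the gene's 2 or more probe sets above that level moved alike in HEY. Named are the 10 lower and 6 higher of these by the smaller of their differences in HEY and SKOV3. OSTM1, a partner of the lysosomal chloride transporter CLCN7, was 8.31, 8.12 and 8.35 with miR-429 in HEY, against 11.47, 11.50 and 11.34 with miR-203a. In SKOV3 it was 6.89, 6.44 and 6.49, against 10.26, 10.33 and 9.90. This gave differences of -3.17 in HEY and -3.56 in SKOV3, with all 4 probe sets lower in HEY. Its level with miR-203a differed from that with miR-NC by 0.16 in HEY.

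The other lower genes included the targets CFL2 and SEC23A described above. PANX1, a membrane channel for ATP and other small molecules, was 9.45, 9.71 and 9.65 with miR-429, against 11.69, 11.76 and 11.67 with miR-203a in HEY. It differed by -2.10 in HEY and -2.36 in SKOV3. The kinase HIPK3 differed by -1.93 and -2.86, and LHFPL6 by -1.92 and -2.40. CRTAP, which takes part in the prolyl hydroxylation of collagen, differed by -1.89 in HEY and -2.28 in SKOV3. RDH10, an enzyme of retinoic acid synthesis, differed by -1.91 and -1.87. The deubiquitinase MINDY2 differed by -2.84 and -1.77, and the secreted glycoprotein STC1 by -2.50 and -1.59.

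Among the higher genes, SEL1L3 was 9.47, 9.83 and 9.72 with miR-429 in HEY, against 7.46, 7.57 and 7.38 with miR-203a. It differed by 2.20 in HEY and 2.37 in SKOV3, and with miR-203a it was lower than with miR-NC by 0.98. POLR1E, a subunit of RNA polymerase I, was 9.24, 9.35 and 9.20 with miR-429, against 6.94, 7.23 and 6.96 with miR-203a. It differed by 2.22 and 1.85, and miR-203a lay 0.75 below miR-NC. NAA50, an N-terminal acetyltransferase, differed by 1.5 in HEY and 2.21 in SKOV3 and lay 0.94 below miR-NC with miR-203a. TUBGCP2, of the γ-tubulin ring complex, differed by 1.92 and 1.54, the protease inhibitor CST6 by 1.82 and 1.53, and the protease FAM111B by 3.32 and 1.5. For 3 of these 6, SEL1L3, POLR1E and NAA50, the difference from miR-NC with miR-203a passed the test.

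**Figure D4:**
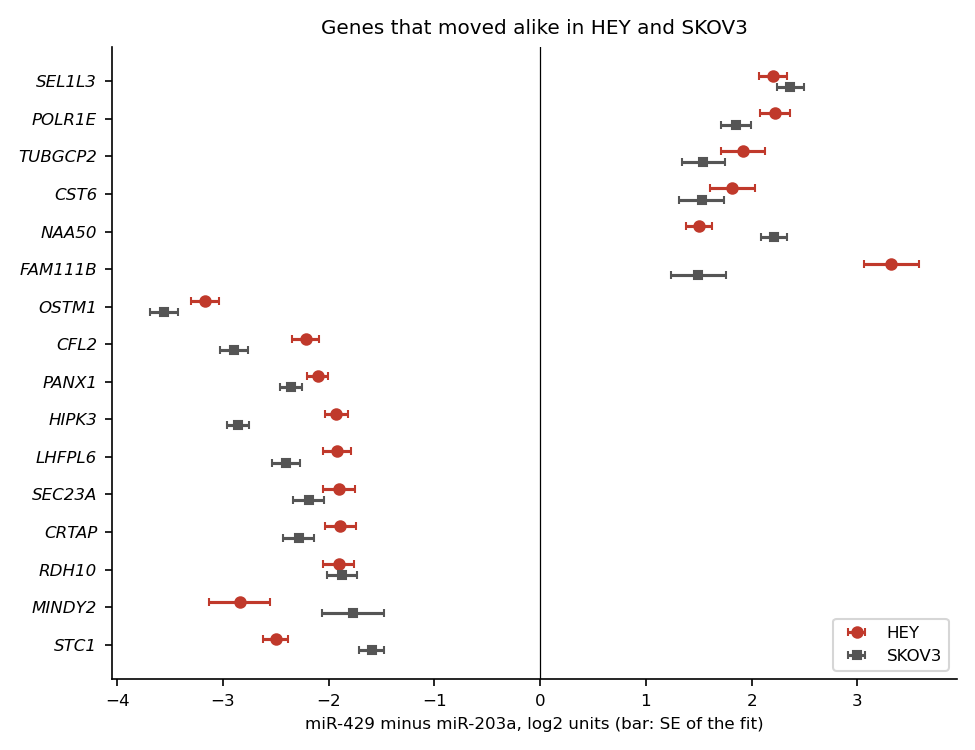
Difference between miR-429 and miR-203a (log2 units, bars SE of the fit) for the 10 lower and 6 higher genes that moved alike in HEY (circles) and SKOV3 (squares), chosen for that agreement. OSTM1 is the lowest in both lines at -3.17 and -3.56, and SEL1L3 lies at 2.20 and 2.37.

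The overlap between the lines was unequal by direction. Of 133 genes at least 2-fold lower with miR-429 in SKOV3, 108 (81.2%) were lower and 6 higher in HEY. Of 468 at least 2-fold higher in SKOV3, 142 (30.3%) were higher and 114 lower in HEY. Of all genes 29.6% were lower and 19.5% higher in HEY. Of 1891 genes at least 2-fold lower in HEY, 342 (18.1%) were lower and 135 higher in SKOV3. Of 1091 genes at least 2-fold higher in HEY, 137 (12.6%) were higher and 44 lower in SKOV3. Of all genes 5.57% were lower and 10.6% higher in SKOV3, so the 12.6% lay near the share of all genes. In all, 1996 genes passed in both lines, 1203 (6.08% of all genes) in the same and 793 in opposite directions. Within HEY, of 3598 genes that passed and had 2 or more probe sets above 4.89, 1911 (53.1%) had all of them in 1 direction. Of 615 such genes that also passed in the same direction in SKOV3, 315 (51.2%) had all of their probe sets in 1 direction in HEY. Within SKOV3 the share among genes that passed there was 71.1%.

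The 28 genes named for the largest differences in HEY include 9 that passed in SKOV3, all in the HEY direction, against 16.1% of all genes. For 27 of the 28 genes the contrast differed between HEY and SKOV3, against 38.7% of all genes. Their SKOV3 values are given as a description, since the genes were chosen by their size in HEY, and 5 of the 28 (ERBB4, ERC2, GPR65, H1-1 and NOX4) lay below 4.89 in both SKOV3 groups, which gives no size there. Of those with both means above 4.89, the lowest were DACT1, COLGALT1 and NOX4. DACT1, an inhibitor of Wnt signalling through Dishevelled, was 5.06, 4.76 and 5.03 with miR-429, against 9.34, 9.51 and 9.33 with miR-203a. It differed by -4.45 in HEY and -0.70 in SKOV3. COLGALT1, which adds galactose to collagen, differed by -3.80 in HEY and -0.34 in SKOV3, and NOX4, an NADPH oxidase that makes hydrogen peroxide, by -3.69 in HEY. The presynaptic scaffold ERC2 (-3.50), NREP (-3.44), the axonemal dynein DNAH5 (-3.43), the collagen COL5A1 (-3.26), TMEM170B (-3.24) and SCG5 (-3.14), a chaperone of a prohormone convertase, followed. NREP, TMEM170B, COL5A1 and SCG5 were also lower in SKOV3, by 1.47, 1.06, 0.58 and 0.57, and DNAH5 differed there by 0.22. For NREP the result rests on probe sets that may also bind related transcripts, since without these its value was 0.46 and did not pass. ERBB4, GALNT16, EPHA4 and SMIM17 were lower by 3.41 to 3.65 with the miR-429 mean below 4.89, so these are bounds. Of 4 ERBB4 probe sets 1 was lower and 1 higher, and GALNT16 was 0.07 without probe sets that may bind related transcripts.

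The highest with miR-429 were DSG2-AS1, BRD2 and LMO7. DSG2-AS1, annotated antisense to the desmosomal cadherin DSG2, was 10.74, 11.35 and 11.05 with miR-429, against 6.91, 6.53 and 6.44 with miR-203a. It was higher by 4.41 in HEY and 1.34 in SKOV3 on 1 of its 3 probe sets, and signal from its sense partner was not separated from it. BRD2, a reader of acetylated histones, was 10.32, 10.11 and 10.05 with miR-429, against 6.11, 6.11 and 5.95 with miR-203a, a difference of 4.10 in HEY and -0.14 in SKOV3, with 2 of 3 probe sets higher and 1 lower in HEY. LMO7, a cell junction protein, was higher by 3.79, with 3 of 4 probe sets higher and 1 lower, and differed by 0.23 in SKOV3. FAM111B (3.32), PPIB (3.15), a cyclophilin of the endoplasmic reticulum, MRPL37 (3.13), of the mitochondrial ribosome, and KRT18 (3.04), a keratin of simple epithelia, followed, and of these PPIB, MRPL37 and KRT18 differed by 0.17, 0.39 and 0.33 in SKOV3 without passing. ANKRD36B (3.58), the linker histone H1-2 (3.27) and LOC100190986 (3.22) were also among them, and the first and H1-2 have close copies in the genome that the probes may share. H1-1, ZBED6, C1orf116 and GPR65 were higher by 3.04 to 3.55 with the miR-203a mean below 4.89, so these are bounds, and of these C1orf116 was also higher in SKOV3, by 2.19.

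The counts of the following lists are read against all genes, of which 29.6% were lower and 19.5% higher in HEY. In SKOV3 these shares were 5.57% and 10.6%. Of all genes, 3.38% were lower and 2.71% higher in both lines. Of 39 mesenchymal genes 19 (48.7%) were lower and 5 (12.8%) higher with miR-429 in HEY (median -0.29), and 8 were lower in both lines, against 3.38% of all genes. COL6A3, a collagen, differed by -2.88 in HEY with a miR-429 mean of 4.19, below 4.89, so that this is a bound. FAP, a surface protease of fibroblasts, differed by -2.50 in HEY and lay below 4.89 in both SKOV3 groups, at 3.24 and 3.44, so that line gives no size for its change. Of 21 TGF-beta response genes 13 (61.9%) were lower and 3 (14.3%) higher (median -0.57, and -0.22 as the mean of probe sets), against 4 lower and 5 higher in SKOV3. LTBP1, which binds latent TGF-beta in the matrix, was 7.32, 7.42 and 7.68 with miR-429, against 9.71, 9.68 and 9.72 with miR-203a, and differed by -2.23 in HEY and 0.13 in SKOV3. A second LTBP1 probe set moved the other way. The co-receptor TGFBR3 differed by -2.13 in HEY and -1.38 in SKOV3. ID1 and ID3, inhibitors of differentiation factors, went against the list and were higher by 2.80 and 1.5 in HEY, where the ID1 mean with miR-203a was below 4.89, and differed by -0.10 and 0.31 in SKOV3 without passing.

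Epithelial genes were split once those near background were set aside. Of 37 measured, 16 (43.2%) were higher and 7 (18.9%) lower (median 0.36), but 8 of the higher and 1 of the lower had both means below 4.89. Of the 16 with a mean above that level 8 were higher and 6 lower. In SKOV3 17 of the 37 were higher and none lower (10.6% and 5.57% of all genes), with 8 higher in both lines (2.71% of all genes). Scaled to the hybridisation controls the HEY median of the 37 turned negative, as for all lists named here as higher. KRT7, a keratin of glandular epithelium, was higher by 1.77 in HEY and 0.85 in SKOV3, but 2 of its 4 probe sets were lower. SPINT2, an inhibitor of epithelial proteases, was 7.17, 7.74 and 7.72 with miR-429, against 5.06, 5.42 and 5.58 with miR-203a, and was higher by 2.19 in HEY and 0.51 in SKOV3. Of 23 tight junction and desmosome genes 6 (26.1%) were higher and 8 (34.8%) lower. The desmosomal proteins DSP (1.23 in HEY, 0.46 in SKOV3) and PKP2 (1.23 and 0.70) were higher in both lines, but the second of the PKP2 probe sets was lower in HEY, and as their mean PKP2 did not pass (0.12). PARD3, a polarity protein, was higher by 1.96 in HEY, with 2 of 4 probe sets higher and 1 lower, and differed by -0.30 in SKOV3.

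Cell cycle genes were higher in 21 (45.7%) and lower in 8 (17.4%) of 46 (median 0.29, and 0.18 without probe sets that may bind related transcripts), and in SKOV3 in 21 and 0 of 46 (median 0.40), with 10 higher in both lines; the HEY median turned negative against the hybridisation controls. The mitotic genes UBE2C (1.95) and CDC20 (1.77) led in HEY, but differed by 0.05 and 0.01 in SKOV3. Cyclin D1 (CCND1) was lower by 1.51 on 1 of its 2 probe sets and higher on the other. Of 37 ribosomal protein genes 17 (45.9%) were higher and 1 (2.70%) lower (median 0.27, again negative against the hybridisation controls, and 0.06 without probe sets that may bind related transcripts), against 1 higher and none lower in SKOV3. RPS3 was 12.80, 13.09 and 13.11 with miR-429, against 11.12, 10.94 and 10.80 with miR-203a, and RPL35 was higher by 1.95, while in SKOV3 they differed by 0.06 and -0.09.

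Interferon response genes were lower in 17 (42.5%) and higher in 6 (15%) of 40 (median -0.44), against 2 lower and 1 higher in SKOV3, where 5.57% and 10.6% of all genes were. They include IFIT2 (-1.71 in HEY, -0.45 in SKOV3) and IFIT3 (-1.59), which bind viral RNA, and DDX60 (-1.68 in HEY, 0.12 in SKOV3), an antiviral helicase. In SKOV3 IFIT3 was higher, by 1.07. Set against miR-NC, the median of the list was -0.66 with miR-429 and -0.18 with miR-203a. Of 2 probe sets each, IFIT2 and IFIT3 had 1 lower and 1 higher in HEY, and as the mean of these neither passed. Inflammatory cytokine and NF-kB genes were higher in 8 (33.3%) and lower in 4 (16.7%) of 24 (median 0.16, negative against the hybridisation controls). That median was 0.08 without replicate 3 of the miR-429 arrays and 0.10 without replicate 3 of the miR-203a arrays. Set against miR-NC the median of the list was -0.37 with miR-429 and -0.50 with miR-203a. NFKBIA, the inhibitor of NF-kB, was higher by 1.63 in HEY and lower by 0.74 in SKOV3, but its other probe set differed by -0.03 in HEY.

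Cholesterol synthesis genes were lower in 9 (47.4%) and higher in 3 (15.8%) of 19 (median -0.37), against 5 lower and 1 higher in SKOV3 (median -0.25). MSMO1 (-1.78 in HEY, -0.54 in SKOV3) and SC5D (-1.54 and -0.49), both enzymes late in the pathway, were lower in both lines. HMGCS1 (-1.74 in HEY, -0.14 in SKOV3) and SQLE (-1.45 and -0.25) were lower in HEY and did not pass in SKOV3, and of 4 SQLE probe sets 3 were lower and 1 higher in HEY. Set against miR-NC, the median was -0.06 with miR-429 and 0.37 with miR-203a, with 8 of 19 higher and none lower with miR-203a.

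Notch pathway genes were lower in 9 (45%) and higher in 1 (5%) of 20 (median -0.22, and -0.37 without replicate 3 of the miR-429 arrays). HEY1, a Notch target, was lower by 1.22 in HEY and 0.53 in SKOV3. HES1, another Notch target, was 9.09, 9.06 and 8.99 with miR-429, against 6.95, 7.16 and 7.15 with miR-203a. Its difference from miR-NC was 0.09 with miR-429 and -1.87 with miR-203a, and without a probe set that may bind related transcripts the direct contrast was -0.01. YAP target genes were lower in 10 (47.6%) and higher in 2 (9.52%) of 21, with a median of -0.29 that was -0.18 without replicate 1 of the miR-429 arrays and -0.03 as the mean of probe sets. Polycomb and DNA methylation enzymes were lower in 9 (47.4%) and higher in 2 (10.5%) of 19, with a median of -0.25 that was -0.17 without replicate 1 of the miR-429 arrays. Of 44 actin and focal adhesion genes 17 (38.6%) were lower and 8 (18.2%) higher, near the shares over all genes. PDLIM5, a LIM protein of actin fibres, was lower by 1.31, with 4 of 10 probe sets lower and 2 higher, and as their mean it did not pass. ZYX, the focal adhesion protein zyxin, was higher on both of its probe sets, by 1.73 on the brighter. In SKOV3 PDLIM5 and ZYX differed by -0.31 and -0.13 without passing. Of 21 integrin and laminin genes 9 (42.9%) were lower and 6 (28.6%) higher. ITGA1, an integrin collagen receptor subunit, was lower by 1.18 in HEY and 1.35 in SKOV3, both bounds since the miR-429 means lay below 4.89.

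Other lists were split. Of 24 EGF receptor family and RTK signalling genes 11 were lower and 10 higher, and TGFA, a ligand of the EGF receptor, was higher by 2.02 in HEY and 1.10 in SKOV3. Of 27 unfolded protein and integrated stress response genes 8 were lower and 7 higher. CRELD2 (2.0) and the chaperone HSP90B1 (1.54) were higher in HEY and differed by 0.05 and 0.02 in SKOV3, while the chaperone DNAJB9 was lower by 1.87 in HEY and 1.00 in SKOV3. Of 20 p53 response genes 6 were higher and 6 lower, with BAX, a promoter of apoptosis, higher by 1.51 and TP53INP1 lower by 1.77, against differences of 0.01 and -0.38 in SKOV3 that did not pass. Of 15 miRNA machinery genes 4 were higher and 6 lower. XPO5, the exporter of miRNA precursors, was higher by 1.28, and AGO4, an Argonaute protein, was lower by 1.22 with 3 of 4 probe sets lower and 1 higher, and in SKOV3 neither passed.

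**Figure D5:**
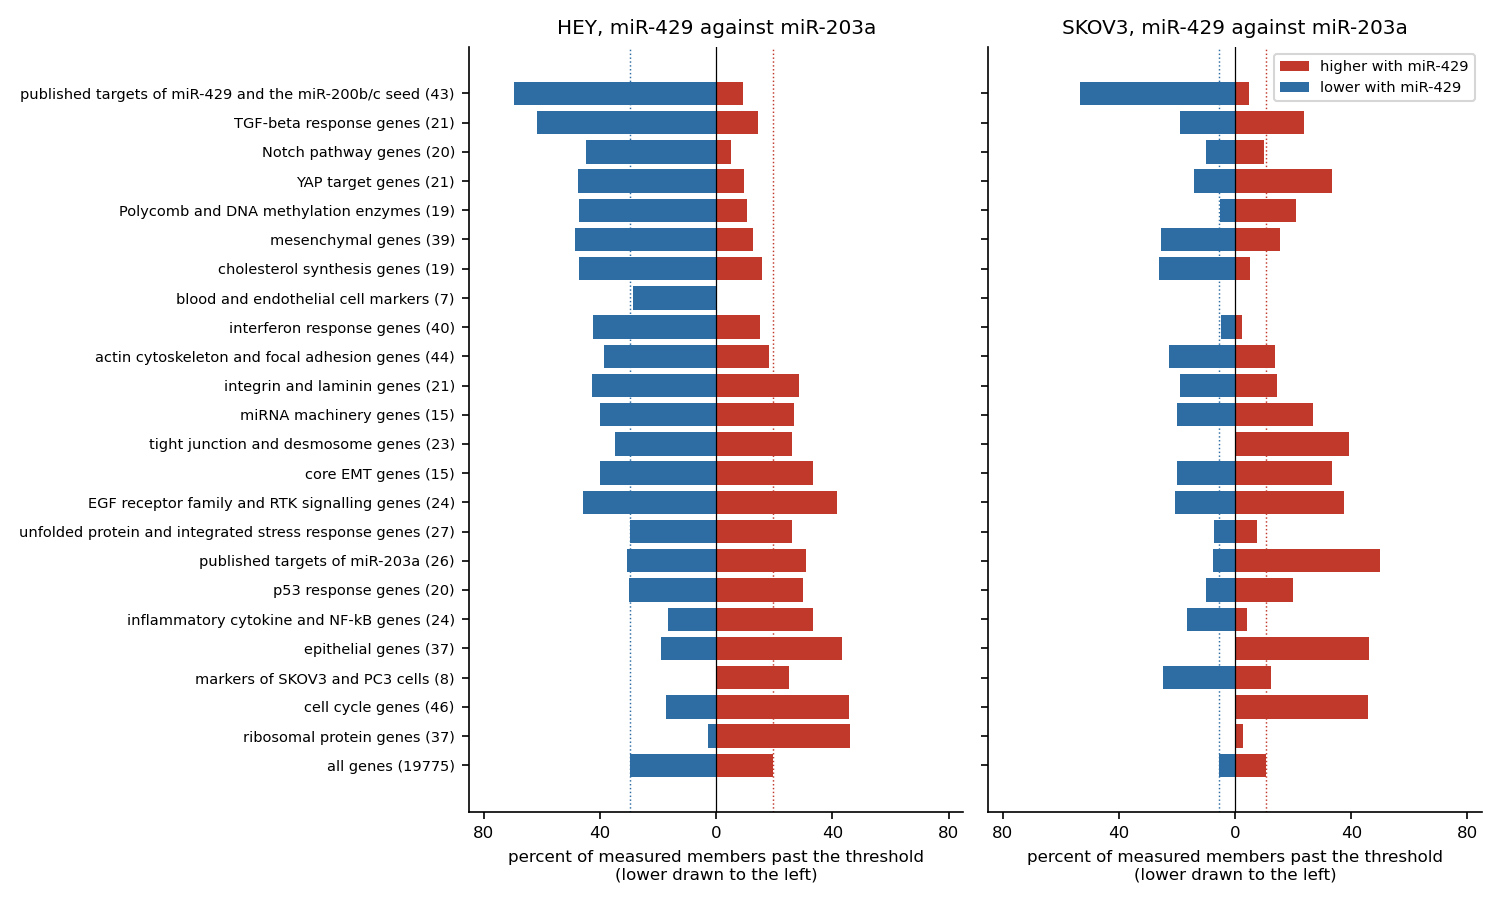
Percent of the measured members of each gene list (number in brackets) that were higher (right) or lower (left) with miR-429 than with miR-203a, in HEY and SKOV3. Dotted lines mark all genes (29.6% lower and 19.5% higher in HEY); the miR-429 target list has the largest lower share in both lines, and ribosomal protein genes are higher mainly in HEY.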

How the data were processed

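The authors deposited log2 intensities after RMA, per the submitters' processing notes, which correct background, normalize arrays and summarise probe sets; the version is not given in the sources used here. From these, 54613 probe sets, without 62 controls, entered 1 limma fit (3.58.1, R 4.3.3, lmFit and eBayes) of 12 group means over the 36 transfected arrays, with 24 residual and 5.71 prior degrees of freedom. The 9 arrays labelled untransfected were left out, because an earlier account of these data reports that markers of the lines go against their labels. Those markers are not shown here. Tests were two-sided with Benjamini-Hochberg adjustment over all probe sets. Of these probe sets 41091 carried 1 symbol, 1801 several and 11721 none, and each of 19775 genes was given by the probe set with the highest mean. Array medians ran from 4.49 to 4.98, and precision is limited by having 3 arrays a group.

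Named are the 10 highest and 10 lowest genes that passed without overlap and with both means above 4.89, the 4 each way with 1 mean below it, every core EMT gene, every target that passed, and up to 4 members of each other list. The text leaves out some of these. Lists, members and rules were chosen with earlier results of these data known. Genes alike in both lines were chosen after their values were seen. Alternatives were other arrays in the fit, scalings, filters, variance models and probe set rules, a replicate block and each array left out. The fit was tested on simulated data. Python 3.11.15, numpy 2.4.6, pandas 2.3.3 and matplotlib 3.10.9 were used.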

Additional observations from a re-analysis of the deposited data

Results flagged for a closer look

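The contrast of miR-429 with miR-203a differed between HEY and SKOV3 in 7650 of 19775 genes and between HEY and PC3 in 12659, by the test of the difference itself. Among EMT genes it was lower in HEY than in SKOV3 for CDH1 (-3.99), EPCAM (-2.99), ZEB2 (-2.10), OVOL1 (-0.86), CDH2 (-0.83) and TWIST1 (-0.42). It was higher in HEY for ESRP1 (1.40), VIM (1.14), GRHL2 (1.02) and FN1 (0.84). Several of these sizes rest on levels below 4.89, near background. This holds for OVOL1 and GRHL2 in all groups, for ZEB2 and ESRP1 in both SKOV3 groups, for EPCAM in both HEY groups, and for CDH1 in both HEY groups and with miR-203a in SKOV3. The hybridisation controls differed between the miRNAs in HEY and PC3 far more than in SKOV3. The GAPDH and Bacillus subtilis controls also differed between the HEY and SKOV3 arrays. The part of these controls in the differences between the lines was not tested.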

How the results depend on the processing

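Scaling to the hybridisation controls put the median difference of all genes at -1.59, against -0.08 without it. It gave 51256 probe sets and 18928 genes for miR-429 against miR-203a in HEY (146 higher, 18782 lower), 18665 genes against miR-NC, 931 for miR-203a against miR-NC, 1452 in SKOV3 and 18012 for the difference between HEY and SKOV3. A minimum of 2-fold left 9499 probe sets, 2982 genes, 3535 genes against miR-NC, 409 for miR-203a against miR-NC, 601 in SKOV3, and 3594 and 8045 genes for the differences from SKOV3 and PC3. The 75th percentile filter left 15097 probe sets, and the 12 HEY arrays alone gave 1334 genes for miR-203a against miR-NC. All other totals stayed within 1.5 times, but the lower calls in SKOV3 (1102) were 713 without replicate 3 of its miR-429 arrays and 700 without replicate 3 of its miR-203a arrays.

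Leaving out 1 array at a time gave 23483 to 25143 probe sets and 8696 to 9219 genes for the direct contrast, 9112 to 9715 genes against miR-NC, 1622 to 1790 for miR-203a against miR-NC, 2394 to 2777 in SKOV3, 6934 to 7563 for the difference from SKOV3 and 12062 to 12513 for that from PC3. Of 768 values of 128 named genes, 8 lost the call (BIRC5, DLX5 and OVOL1), 1 gained it (RAB25) and no called value changed sign. CDH1, not called, ran from -0.092 to 0.43. In the other settings apart from the hybridisation controls, 21 of 1371 values in 15 genes lost the call. As the mean of probe sets these were AKT2, BCL2L2, FSCN1, IFIT2, IFIT3, OVOL1, PDLIM5, PKP2 and VIM (adjusted p from 0.054 to 0.51), and with the 6 arrays alone BIRC5, CAV1, DLX5, EPCAM and NUAK1 (0.051 to 0.10). BIRC5, CAV1 and CDH2 lost it with all 45 arrays, CAV1 with the HEY arrays alone, and BIRC5 in 3 further settings. Scaled to the hybridisation controls, CDC20, CST6, HSP90B1, KLHL20, KRT7, NFKBIA, SNAI2, SRC, TUBGCP2, UBE2C and ZYX stayed positive but lost it (0.051 to 0.90). List medians near 0 changed sign: they ran from -0.030 to 0.068 for miR-203a targets, -0.019 to 0.12 for tight junction genes and -0.12 to 0.041 for unfolded protein genes. With the replicate number as a block 9608 genes were called. Deviations of same-numbered arrays correlated at 0.02, -0.03 and -0.04, so no variation shared by number was seen. Whether same-numbered arrays came from 1 experiment is not given in the labels.

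Scaled to the hybridisation controls, these genes turned negative: BAX -0.00052, BCL2L2 -0.57, CAV1 -1.23, CDH1 -1.33, DSP -0.29, E2F3 -1.0, EPCAM -0.73, ERBB2 -0.52, FHOD1 -0.78, GRHL2 -0.80, ID3 -0.0081, JUN -0.95, LASP1 -0.27, NAA50 -0.013, NUAK1 -1.15, PAX8 -0.77, PKP2 -0.28, RAB25 -1.12, SNAI1 -1.16, SP1 -0.50, TUBB3 -0.55, TWIST2 -1.13, VIM -0.56 and XPO5 -0.24. So did the medians of the core EMT genes (-1.16), miR-203a targets (-1.48), epithelial (-1.15), tight junction (-1.44), cell cycle (-1.22), cytokine (-1.36) and ribosomal protein genes (-1.24) and of the SKOV3 and PC3 markers (-1.45). Both come from that shift of all genes. As the mean of probe sets, BIRC5 was 0.33, CCND1 0.62, ERBB2 -0.15, KLHL20 -0.17 and SP1 -0.57, and the medians of unfolded protein genes, miRNA machinery and SKOV3 and PC3 markers were 0.041, 0.19 and -0.053. Without probe sets that may cross-hybridise, FN1 was 0.68, GALNT16 0.066, HES1 -0.0087, KLHL20 -0.52, NFKBIA -0.027, NREP 0.46 and RAPGEF1 0.38, with tight junction genes at -0.071 and unfolded protein genes at 0.048. Their probe set then differs from the brightest. Quantile normalization gave unfolded protein genes 0.052, subtracted array medians gave p53 genes 0.030 and the filter at the median gave the SKOV3 and PC3 markers -0.036, and the cause was not tested. ZEB1, ZEB2, CFL2, SEC23A and OSTM1 kept their direction and call under every alternative that gave them a value.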
